A study of Mus musculus with 6 samples.

Results

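The genes described here encode the amino acid transporters of the Slc1, Slc3, Slc6, Slc7, Slc36, Slc38 and Slc43 families, followed over 6 arrays of mouse beta cells and islets. Members were chosen by a rule on gene symbols that uses no measured value, though with earlier results of these data known. Of each gene's probe sets, the one brightest on average across all 6 arrays stood for it. This gave 63 members among 18194 genes. The families are wider than their common name. The Slc6 family also holds carriers of neurotransmitters, taurine and creatine, and 3 of the matched symbols (Slc36a1os, Slc6a19os and Slc7a6os) belong to genes on the opposite strand of a transporter gene, of which the first and second are long non-coding RNAs.

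The 4 MIN6 arrays were of insulin-secreting beta cells of a mouse line infected with adenovirus. The virus carried GFP in the control (AdGFP) on 1 array, miR-7a (AdmiR7a) on 2 arrays and miR-7b (AdmiR7b) on 1 array. All MIN6 cultures had the same exposure, a multiplicity of infection of 250 over 48 h, in medium of 4.5 g/l glucose with Glutamax, 2% serum and 2-mercaptoethanol. Pancreatic islets came from C57BL/6 mice in which Lox/Cre recombination had removed miR-7a2 from beta cells (KO) and from wild-type mice (WT), with 1 array for each genotype. The promoter that drove Cre, the Cre status of the wild-type mice, their age and the number of animals behind each islet array are not given in the sources used here. AdmiR7a was infected in duplicate, and whether the cultures were separate is not stated, so p-values below measure only the spread between these arrays, which may be technical.

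A cell takes up amino acids through carriers that differ in substrate and in driving force. Sodium-coupled carriers of the Slc1, Slc6 and Slc38 families concentrate amino acids in the cell. The light chains of the Slc7 family join a heavy chain of the Slc3 family and exchange one amino acid for another. In the beta cell, leucine, glutamine and arginine add to glucose-driven insulin secretion, and arginine enters as a positive charge through cationic carriers. Several of these carriers are also known targets of the transcription factor Atf4 in the amino acid response.

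The vectors and the deletion concern microRNAs of one family, and their mature sequences are printed because both vectors share the seed through which a microRNA pairs with its targets. Sequences are from RefSeq (GRCm38.p6), written 5′ to 3′, with the seed, bases 2 to 8, in capitals.
miR-7a-5p (Mir7-2, chr7:78888295-78888317, plus strand): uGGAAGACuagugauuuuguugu
miR-7b-5p (Mir7b, chr17:56243017-56243040, plus strand): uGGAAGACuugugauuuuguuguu
The mature miR-7a-5p has 23 bases and miR-7b-5p 24. Over the shared length they differ by 1 substitution, A10U, counted from 1 at the 5′ end with the base of miR-7a first, which lies outside the seed. Mir7-1 (chr13:58392841-58392863, minus strand) gives the same mature miR-7a-5p as Mir7-2, and the labels name no change to it in the KO mice. Mature miR-7 was not measured on these arrays.

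The values are log2 intensities made by the authors with GCRMA, and the arrays were alike in upper quartile and in the share at the lowest value. Their medians were 2.98 to 3.01 on the MIN6 arrays, 3.33 in KO islets and 3.29 in WT islets. On each array the upper quartile was 7.95 to 8.01 (log2), and between 28.25% and 29.72% of probe sets sat at one shared lowest value of 2.169. The beta-cell genes Ins2, Iapp and G6pc2 were high on all 6 arrays. The glucose transporter gene Slc2a2, a beta-cell marker, was at 3.84 on AdGFP and 14.15 in WT islets. Hhex, a transcription factor gene of somatostatin cells, was at 9.05 in KO islets and 9.01 in WT islets and sat at the lowest value in MIN6 cells. On AdGFP the other listed markers of somatostatin (delta) and PP cells read 9.64 (Sst), 5.79 (Rbp4), 5.59 (Ppy) and 4.91 (Pyy). In WT islets these genes read 14.74, 12.74, 15.6 and 15.67. The listed alpha-cell markers did not move together. Gcg was at 13.35 on AdGFP and 16.38 in WT islets, and Irx2 at 3.38 and 5.24. Irx1 was at 5.21 on both, and Ttr was at 16.14 on AdGFP and 15.35 in WT islets. The list of 12 miR-7 targets was used to check the vectors. Of 11 tested in MIN6, 10 fell and 0 rose, with a median log2 difference of -0.93. Over all genes tested there, 12.1% fell and 14% rose. In islets 12 of 12 were higher in KO than in WT, with a median of 0.40, where 53.6% of all genes tested were lower in KO. These targets were chosen with earlier results of these arrays known, so their direction is a check of the labels only.

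Of the 63 members, 30 were below 4 (log2) on all 6 arrays, the level used here as the filter, and 16 of these sat at the shared lowest value on all 6. The genes for the dopamine and serotonin carriers (Slc6a3 and Slc6a4), the neuronal glycine transporter (Slc6a5), the GABA transporter Slc6a11, the glutamate transporters Slc1a1, Slc1a3, Slc1a6 and Slc1a7 and the heavy chain Slc3a1 were among those below 4. Whether their transcripts were absent or only below what these probe sets detect cannot be told apart. A mean of 4 or more was reached by 32 members in MIN6 cells and by 26 in islets. All 26 also passed in MIN6. The 6 that passed in MIN6 alone were Slc1a2, Slc1a5, Slc38a5, Slc6a12, Slc7a7 and Slc7a11.

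**Figure D1:**
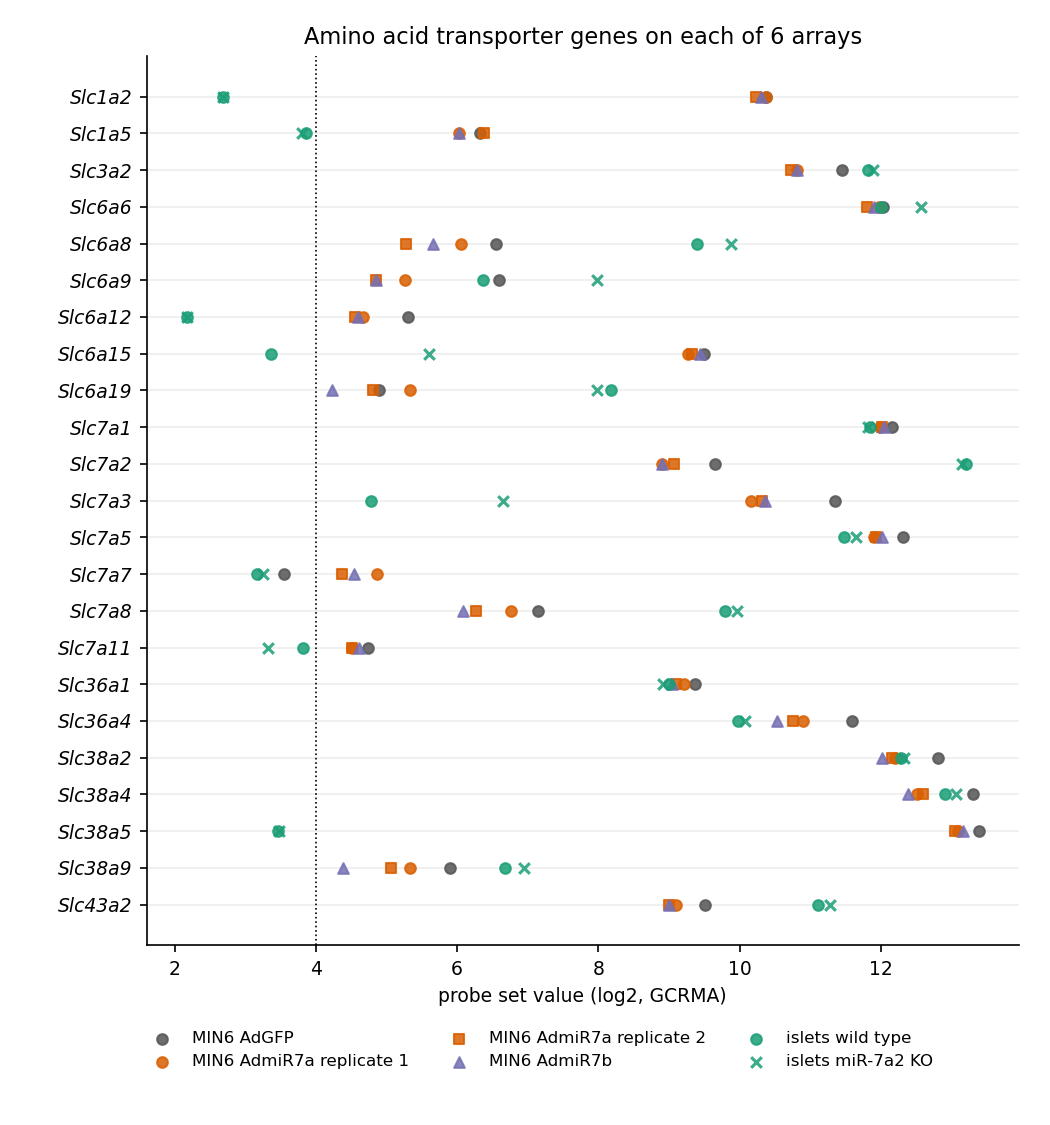
Values of the 23 members named by the rule for named genes on each of the 6 arrays, with 1 point per array and the log2 probe set value on the horizontal axis. The dotted line marks the filter of 4. In Slc6a9 and Slc7a3 the AdGFP point lies right of the 3 miR-7 points and the KO islet point lies right of the WT islet point.

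To ask how the transporters differed when miR-7 was raised in MIN6 cells, the 3 miR-7 arrays were pooled against the AdGFP array in limma. In what follows, "fell" and "rose" mean an adjusted p under 0.05 in that fit, and errors of differences are standard errors. Of the 32 members tested, 11 fell (34.4%), where 12.1% of all genes tested fell. The single member that rose was Slc7a7 (3.12%), where 14% of all genes rose. Slc7a7 passed the filter only through the miR-7 arrays, so its place in the counts of higher members is no support for a difference. The median difference over the tested members was -0.31 (log2), with quartiles of -0.69 and -0.14, against a median of 0.06 over all genes. On all 3 miR-7 arrays, 25 members (78.1%) were below AdGFP, against 33.2% of all genes, and 4 (12.5%) were above it, against 46.2%. Every one of these counts rests on the same AdGFP array. With any 1 of the 3 miR-7 arrays left out, 0 members and 0 genes passed in limma, with 13 to 16 members lower at an unadjusted p under 0.05 and 3776 to 3886 genes of either direction at that level. The lowest adjusted p of any member then lay between 0.065 and 0.0784.

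**Figure D2:**
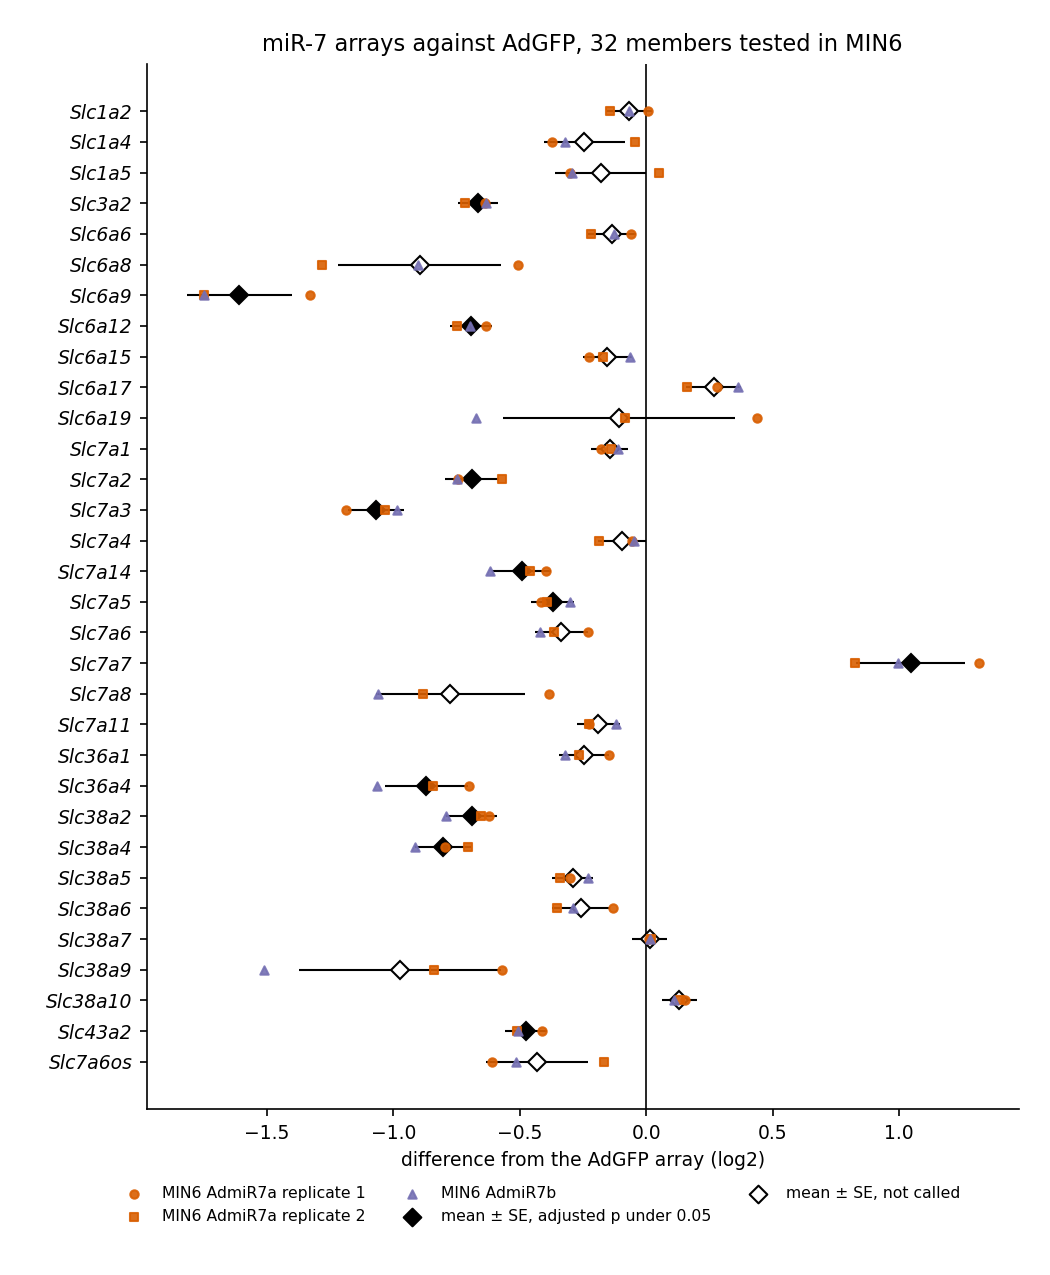
Log2 difference from the AdGFP array of each miR-7 array (coloured points) for the 32 members tested in MIN6 cells, with the mean of the 3 and its standard error from limma (diamonds, filled where adjusted p was under 0.05). Of the filled diamonds, 11 lie left of 0. Only that of Slc7a7, which passed the filter only through the miR-7 arrays, lies right of it.

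Among carriers of the Slc6 family, Slc6a9, the glycine transporter GlyT1, had the lowest difference from AdGFP among the 32 members tested. It read 6.59 on AdGFP, 5.27 and 4.84 on the AdmiR7a arrays and 4.85 on AdmiR7b. Each miR-7 array was thus below the 1 AdGFP array, with no overlap, and Slc6a9 fell by 1.61 ± 0.21 (log2, adjusted p = 0.019 by limma). The second probe set of Slc6a9 was near the lowest value on all arrays and differed by only -0.17. The betaine and GABA carrier Slc6a12 was a dim probe set, at 5.30 on AdGFP against 4.67 and 4.55 with AdmiR7a and 4.60 with AdmiR7b, and it fell by 0.69 ± 0.08 (adjusted p = 0.017). The creatine carrier Slc6a8 read 6.56 on AdGFP, 6.05 and 5.28 with AdmiR7a and 5.66 with AdmiR7b. The AdmiR7a arrays of Slc6a8 lay far apart, and its difference of -0.90 ± 0.32 did not pass (adjusted p = 0.115). The taurine carrier Slc6a6 lay between 11.81 and 12.03 on the 4 MIN6 arrays, a difference of -0.13 ± 0.10 (adjusted p = 0.349). All 4 tested members of this branch were below AdGFP on all 3 miR-7 arrays, and 2 of them fell.

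The branch of Slc6 that carries neutral amino acids held 3 tested members, of which 0 fell and 0 rose. Slc6a15, a carrier of branched-chain amino acids and proline, read 9.50 on AdGFP and 9.27, 9.33 and 9.44 on the miR-7 arrays (-0.15 ± 0.10, adjusted p = 0.297). Slc6a19, the main neutral amino acid carrier of gut and kidney, spread widely around its AdGFP value of 4.89, with 5.33 and 4.81 for AdmiR7a and 4.22 for AdmiR7b. The vesicular carrier Slc6a17 was higher on all 3 miR-7 arrays, by 0.27 ± 0.11, and did not pass (adjusted p = 0.144).

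The cationic branch of Slc7, which includes carriers through which arginine and lysine enter, had 5 tested members, all lower on all 3 miR-7 arrays, and 3 of them fell. Slc7a3, the carrier CAT3, read 11.35 on AdGFP, 10.16 and 10.31 with AdmiR7a and 10.36 with AdmiR7b. The miR-7 arrays lay close together and well below AdGFP, and Slc7a3 fell by 1.07 ± 0.11 (adjusted p = 0.014). The carrier Slc7a2 (CAT2) read 9.65 on AdGFP against 8.90, 9.08 and 8.90, and it fell by 0.69 ± 0.11 (adjusted p = 0.024). Slc7a14 fell by 0.49 ± 0.12, with an adjusted p of 0.04995 that barely passed. The ubiquitous carrier CAT1, Slc7a1, read 12.16 on AdGFP and 11.98, 12.02 and 12.05 on the miR-7 arrays. Its difference of -0.14 ± 0.07 did not pass (adjusted p = 0.220).

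Heteromeric exchangers pair a light chain with a heavy chain. Slc3a2 encodes the heavy chain 4F2hc, also called CD98, and read 11.45 on AdGFP against 10.81 and 10.73 with AdmiR7a and 10.82 with AdmiR7b. It fell by 0.66 ± 0.08 (adjusted p = 0.017), and the miR-7 arrays did not overlap AdGFP. Its light chain Slc7a5 (LAT1), which carries leucine and other large neutral amino acids, read 12.32 on AdGFP and 11.90, 11.93 and 12.02 on the miR-7 arrays. The change was smaller there: Slc7a5 fell by 0.37 ± 0.08 (adjusted p = 0.0476).

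The light chain Slc7a8 (LAT2) read 7.15 on AdGFP, 6.77 and 6.27 with AdmiR7a and 6.09 with AdmiR7b, a difference of -0.78 ± 0.30 that did not pass (adjusted p = 0.128). The cystine and glutamate exchanger Slc7a11 (xCT) was dim, at 4.73 on AdGFP, 4.51 on both AdmiR7a arrays and 4.61 on AdmiR7b (-0.19 ± 0.08, adjusted p = 0.173). With quantile normalization within the MIN6 arrays its difference was -0.35 and passed (adjusted p = 0.0451). Slc7a7, the light chain y+LAT1, was below the filter on AdGFP (3.54) and read 4.86 and 4.37 with AdmiR7a and 4.54 with AdmiR7b. Slc7a7 rose by 1.05 ± 0.21 (adjusted p = 0.039). It passed the filter only through the miR-7 arrays, so this call is no support for a difference. With quantile normalization its difference was 0.67 and did not pass in limma (adjusted p = 0.0796).

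Of the sodium-coupled neutral carriers of Slc38, 2 of 7 tested members fell and 0 rose. Slc38a4 (SNAT4) read 13.30 on AdGFP and 12.51, 12.60 and 12.39 on the miR-7 arrays, and fell by 0.80 ± 0.11 (adjusted p = 0.020). Its other probe set was lower by a like amount (-0.66). Slc38a2 (SNAT2), a carrier that cells raise when starved of amino acids, read 12.82 on AdGFP and 12.19, 12.16 and 12.02 on the miR-7 arrays, and fell by 0.69 ± 0.10 (adjusted p = 0.022). The other probe sets of Slc38a2 differed by only -0.20 and -0.08, and with the mean of its probe sets the call was lost (-0.32, adjusted p = 0.201).

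Slc38a5 (SNAT5), a glutamine carrier, was among the brightest members in MIN6 cells, at 13.39 on AdGFP and 13.09, 13.05 and 13.16 on the miR-7 arrays. Its difference of -0.29 ± 0.08 did not pass (adjusted p = 0.072), though it did in a limma fit with an intensity trend (adjusted p = 0.0416). Slc38a9, a lysosomal arginine sensor for mTORC1, read 5.90 on AdGFP, 5.33 and 5.06 with AdmiR7a and 4.39 with AdmiR7b, a difference of -0.97 ± 0.40 (adjusted p = 0.148). The other probe sets of Slc38a9 were dim, with MIN6 means of 2.22 to 4.78, and differed by -0.11 to 0.07. Slc38a1 (SNAT1) had a mean below 4 in MIN6 cells and was not tested, although it read 4.996 on AdGFP, 3.41 and 3.75 with AdmiR7a and 2.88 with AdmiR7b.

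In the remaining families, the proton-coupled carrier Slc36a4 read 11.59 on AdGFP, 10.89 and 10.75 with AdmiR7a and 10.53 with AdmiR7b, and fell by 0.87 ± 0.16 (adjusted p = 0.033). Its relative Slc36a1 (PAT1), which exports amino acids from lysosomes, read 9.37 on AdGFP against 9.22, 9.10 and 9.04, a difference that did not pass (-0.25 ± 0.10, adjusted p = 0.148). The facilitated carrier Slc43a2 (LAT4) read 9.50 on AdGFP and 9.09, 8.99 and 8.995 on the miR-7 arrays, and fell by 0.48 ± 0.08 (adjusted p = 0.029).

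The Slc1 family held 3 tested members, of which 0 fell and 0 rose. The glutamate transporter Slc1a2 (GLT-1) was bright and level, at 10.37 on AdGFP and 10.38, 10.23 and 10.30 on the miR-7 arrays (-0.07 ± 0.09, adjusted p = 0.613). Slc1a5 (ASCT2), a glutamine exchanger, read 6.32 on AdGFP and 6.02, 6.38 and 6.03, so that 1 AdmiR7a array lay above AdGFP. Its difference of -0.18 ± 0.18 was no larger than its error (adjusted p = 0.489).

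Values that moved with the vectors beside the transporters were the median of the 8 beta-cell markers, -0.74 (log2) on the miR-7 arrays against AdGFP, and 18S ribosomal RNA, at 13.99 on AdGFP against 13.63 to 13.89. The hybridisation controls stood at 11.62 on AdGFP and 11.74 to 11.85 on the miR-7 arrays. The 3 prime to 5 prime difference of actin was 1.43 to 1.48 on all 4 MIN6 arrays. All 9 acinar markers were below 4 on every MIN6 array. The part of the beta-cell markers, the ribosomal RNA and the controls in the transporter differences was not tested.

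The vectors were also read separately. With a mean per vector, AdmiR7a against AdGFP gave 0 members and 0% of all genes at an adjusted p under 0.05 by limma, with 1 residual degree of freedom; 14 members and 3809 genes had an unadjusted p under 0.05, and 13 of those members were lower. By size, 2 members (Slc6a9 and Slc7a3) were lower by at least 1 (log2) on both AdmiR7a arrays, 6.25% against 2.22% of all genes, and 0 were higher, against 2.21%. On the 1 AdmiR7b array 4 members (Slc36a4, Slc38a9, Slc6a9 and Slc7a8) were lower by that size, 12.5% against 4.36% of all genes, and 0 were higher, against 3.82%. These comparisons share the AdGFP array. Between AdmiR7b and AdmiR7a, 0 members and 0% of genes passed in limma, with 597 genes and 1 member at an unadjusted p under 0.05. That member was Slc38a9, 0.81 lower with AdmiR7b, with an adjusted p of 0.739.

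To ask what the loss of miR-7a2 from beta cells went with, KO islets were compared with WT islets, 1 array each, so there is no replicate check and no p-value. By a log2 difference of at least 1, 3 of 26 members were higher in KO (11.5%), against 1.61% of all genes, and 0 were lower, against 1.23%. These were Slc6a15, Slc7a3 and Slc6a9. Slc6a15 passed the filter only through the KO array, so its place in this count is no support for a difference, and with a filter at 6 the count was 1. The median over the 26 members was 0.14 (log2), with quartiles of -0.05 and 0.43. Over all genes the median was -0.02, with quartiles of -0.196 and 0.145. In whole islets, fewer cells of a type and less RNA per cell cannot be told apart.

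Slc6a15 read 5.61 in KO and 3.36 in WT islets, where it was below the filter, so its difference of 2.25 depends on a value near background. Slc7a3 read 6.65 in KO and 4.78 in WT islets (1.88 higher), and Slc6a9 read 7.99 in KO and 6.37 in WT islets (1.62 higher). The second probe set of Slc6a9 was near the lowest value on all arrays, and with the mean of its probe sets the difference was 0.85, under the size used. Slc7a3 and Slc6a15 have 1 probe set each.

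The other tested carriers differed by less than 1 in the islet pair by the probe sets used. Slc38a7, a lysosomal glutamine exporter, read 5.71 in KO and 4.86 in WT islets, and the taurine carrier Slc6a6 read 12.57 and 12.00. The creatine carrier Slc6a8 was 0.48 higher in KO, at 9.88 against 9.40. For the other 8 members that fell in MIN6 cells and were tested in islets, the probe sets used differed as follows: Slc38a2 by 0.04, Slc3a2 by 0.08, Slc36a4 by 0.11, Slc38a4 by 0.16, Slc43a2 by 0.16, Slc7a5 by 0.17, Slc7a2 by -0.06 and Slc7a14 by -0.06. Other probe sets of these genes differed more and not always in the same direction. Those of Slc7a2 were higher in KO by 0.38 to 0.70 and that of Slc7a14 by 0.79, against the opposite sign in the probe sets used. The others of Slc38a2 differed by 0.41 and -0.06, that of Slc38a4 by 0.46, and those of Slc43a2 by 0.32 and 1.62. With the mean of probe sets the difference was 0.70 for Slc43a2, 0.36 for Slc7a2 and 0.31 for Slc38a4. The lowest difference was that of Slc6a17, at 6.47 in KO and 7.17 in WT islets (-0.71), while its other probe sets differed by 0.00 and 0.84.

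Markers of other cell types were read in the same islet pair. The beta-cell list had a KO minus WT median of 0.06, the alpha list -0.01, the delta and PP list 0.03, the immune list 0.05 and the endothelial list -0.20, with Pecam1 at -1.11. In the duct list the median was 0.00 and Krt19 was 1.77 higher in KO. The poly-A spike transcripts stood at 7.52 in KO and 8.55 in WT islets. The part of these values in the differences of Slc6a15, Slc7a3 and Slc6a9 was not tested.

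Both size rules were met by 2 members: Slc6a9 and Slc7a3 were lower by at least 1 on both AdmiR7a arrays and higher by at least 1 in KO islets. They are 7.69% of the 26 members tested in both systems, against 0.174% of all 9765 genes tested in both. Among the 10 members that fell in MIN6 cells and were tested in islets, 8 were higher in KO (80%), against 69.3% of the 1164 genes of any kind that fell and were tested there. Their median KO minus WT difference was 0.13, against 0.12 for those genes.

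**Figure D3:**
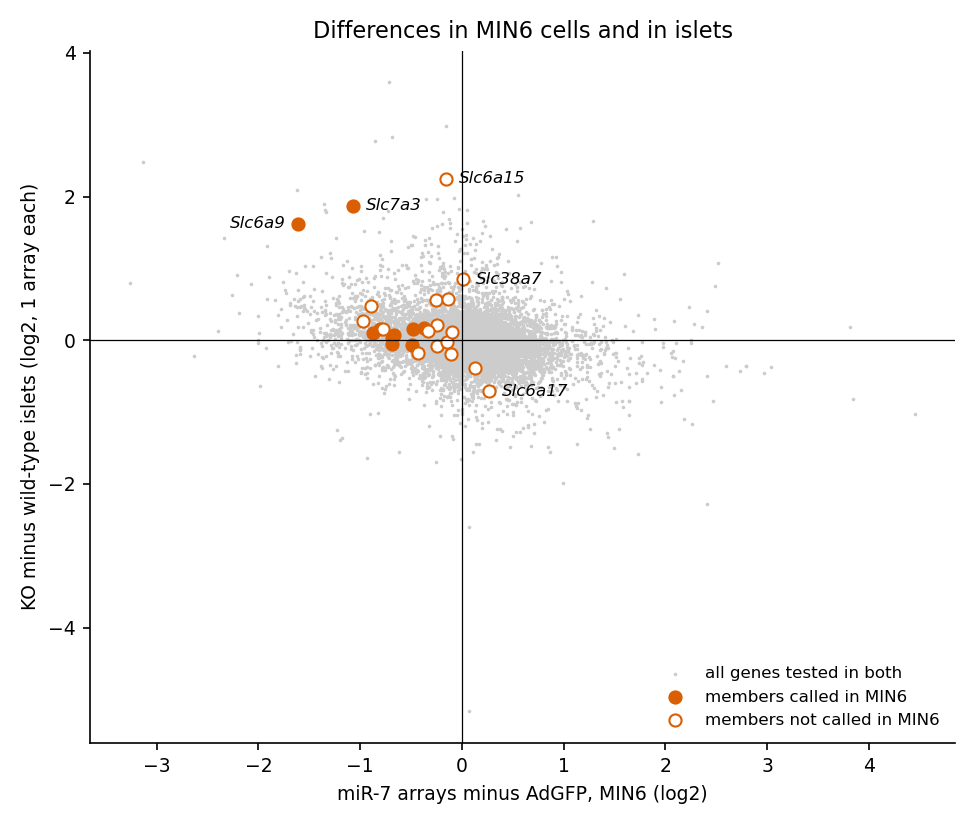
Log2 difference of the miR-7 arrays from AdGFP in MIN6 cells (horizontal) and of KO from WT islets (vertical, 1 array each) for the 26 members tested in both systems (circles, filled where called in MIN6) over all 9765 genes (grey). Slc6a9 and Slc7a3 lie at the upper left, Slc6a15 lies at the top near 0 on the horizontal axis, and the other filled circles, each the probe set used for its gene, lie within 0.17 of 0 on the vertical axis.

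Some carriers stood far apart between MIN6 cells and islets, in both directions. The AdGFP array was set against the WT islet array, 1 array each and with no test; cell line, virus, medium and tissue differ together between them and cannot be told apart. RNA quality and array controls moved with this comparison. The 3 prime to 5 prime difference, a sign of RNA quality, was 1.48 on AdGFP and 2.77 in WT islets for actin. For Gapdh it was 0.00 and 0.68. The hybridisation controls stood at 11.62 and 10.04 and the poly-A spike transcripts at 6.04 and 8.55. The part of these controls in the differences was not tested. By a log2 difference of at least 1, 7 of 30 members were higher in MIN6 cells (23.3%), against 18.6% of all genes, and 6 were lower (20%), against 18%. Both shares of members are near those of all genes. The filter here was a mean of 4 over all 6 arrays. Slc38a5, Slc1a2 and Slc1a5 were below 4 on both islet arrays and passed it only through the MIN6 arrays. Their place in the count of higher members is thus no support for a difference.

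Slc38a5 had the widest gap, at 13.39 in AdGFP cells and 3.46 in WT islets, below the filter there. Slc1a2 read 10.37 against 2.68, Slc7a3 read 11.35 against 4.78 and Slc6a15 read 9.50 against 3.36. For Slc38a5, Slc1a2 and Slc6a15 the islet value is near background, so the differences of 9.93, 7.69 and 6.14 depend on it. Another probe set of Slc1a2 read 6.09 against 2.28. The glutamine exchanger Slc1a5 read 6.32 on AdGFP and 3.86 in WT islets, below the filter there. Slc6a12 sat at the shared lowest value on both islet arrays.

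In the other direction, Slc7a2 read 13.21 in WT islets and 9.65 in AdGFP cells, a difference of -3.56. Slc6a19 (8.17 in WT islets, 4.89 in MIN6 cells), Slc6a8 (9.40 and 6.56), Slc7a8 (9.80 and 7.15) and Slc43a2 (11.12 and 9.50) were also higher in islets by the probe sets used. The other probe sets of Slc43a2 went the opposite way, higher in MIN6 cells by 0.15 and 1.57. The cationic carriers differed among themselves. Slc7a3 was higher in the cell line, Slc7a2 in islets, and Slc7a1 differed by 0.31, or by 1.20 on another probe set. The taurine carrier Slc6a6 differed by 0.03, and Slc3a2 by -0.36. Islets held other cell types whose markers averaged lower in MIN6 cells. The 9 endothelial markers averaged 7.73 in WT islets against 3.21 on AdGFP, where 7 were below 4. The 10 immune markers averaged 6.68 against 2.83, with 9 below 4 on AdGFP. Among the exceptions, Esam read 7.38 on AdGFP and 8.86 in WT islets, and C1qa read 8.05 and 11.00. Which cells of the islet carried each transporter was not tested.

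**Figure D4:**
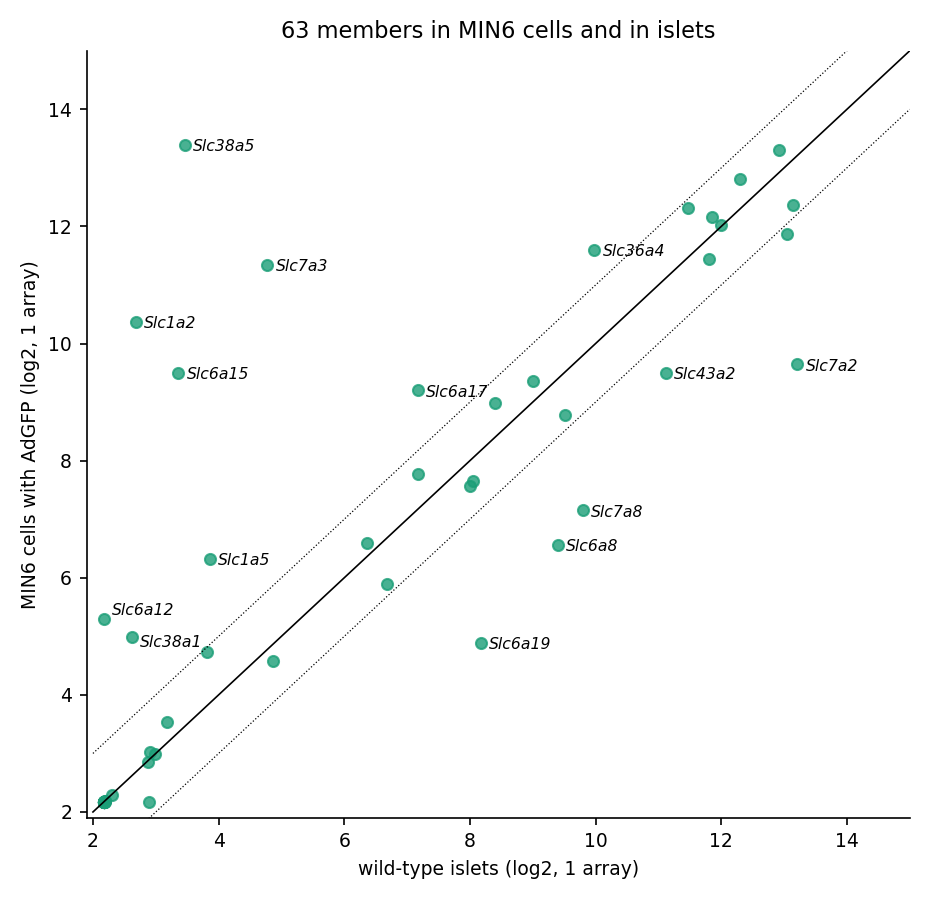
Log2 value of each of the 63 members on the WT islet array (horizontal) and on the AdGFP array of MIN6 cells (vertical), 1 array each. The solid line marks equal values and the dotted lines a difference of 1. Slc38a5, Slc7a3, Slc1a2 and Slc6a15 lie far above the lines and Slc7a2 and Slc6a19 below them.

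Other genes of amino acid handling were read from lists that were not picked by how their genes moved on these arrays, although earlier results of these arrays were known. Of the 23 tested genes of the amino acid response, the Atf4 pathway, 10 fell and 2 rose, where 12.1% of all genes fell and 14% rose, with a median of -0.44 (log2). The transcription factor gene Atf5 fell by 1.69, the alanine aminotransferase gene Gpt2 fell by 1.55 and the stress regulator gene Nupr1 fell by 1.28. The 2 that rose were Ddit3 (1.21), which encodes CHOP, and Eif2ak3 (0.81), which encodes the kinase PERK. Atf4 itself differed by -0.34 and did not pass (adjusted p = 0.0678). In islets 17 of 22 were higher in KO and 5 lower, with a median of 0.15, where 53.6% of all genes tested in islets were lower in KO.

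Among 19 aminoacyl-tRNA synthetase genes, 1 fell and 1 rose, with a median of -0.01. For this list and the next, the shares of all genes are again 12.1% that fell and 14% that rose. The member that fell was Wars, for tryptophan (-1.08), and the one that rose was Hars, for histidine (0.34). Of 23 tested genes of amino acid sensing upstream of mTORC1, 2 fell and 4 rose, with a median of 0.23. The Rag GTPase gene Rragd fell by 0.81 and the Ragulator gene Lamtor3 fell by 0.73, while Nprl2 and Sec13, of the complexes GATOR1 and GATOR2, rose by 0.68 and 0.61.

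Of 14 genes of glutamate, glutamine and GABA metabolism, 2 fell (Gpt2 and Asns, both also on the amino acid response list) and 2 rose, with a median of -0.03. Beside this list and those below, 12.1% of all genes fell and 14% rose. Those that rose were Gad1 (2.25), from a value below the filter on AdGFP, and Gad2 (0.72), which both make GABA from glutamate. Gad1 read 2.92 on AdGFP and 4.91 to 5.44 on the miR-7 arrays. It passed the filter only through the miR-7 arrays, so its place in this count is no support for a difference. Of 13 tested genes of branched-chain amino acid breakdown, 4 fell and 1 rose, with a median of -0.14. The members that fell were Hibadh (-0.70), Acadsb (-0.70) and the genes of the branched-chain keto acid dehydrogenase subunits Bckdhb (-0.70) and Dbt (-0.69), while Bckdha, of the same complex, rose by 0.88. Of 13 tested transporter genes of other families, 3 fell and 1 rose, with a median of -0.04. Slc18a1 (-1.81) and Slc18a2 (-0.87) were 2 that fell, and these carry monoamines into vesicles rather than amino acids across the cell surface. The mitochondrial ornithine carrier gene Slc25a15 fell by 0.99, and the aromatic amino acid carrier gene Slc16a10 rose by 0.48. In islets the KO minus WT medians of these 5 lists lay between -0.03 and 0.09.

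**Figure D5:**
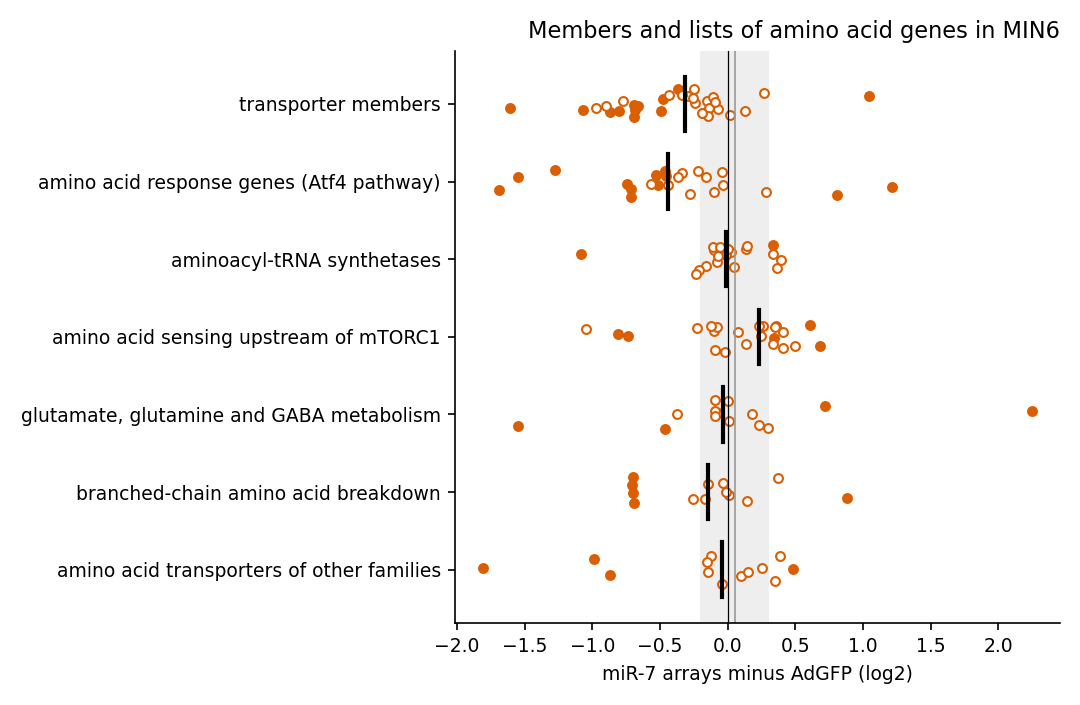
Log2 difference of the miR-7 arrays from AdGFP for the tested transporter members and for 6 lists of related genes, 1 point per gene, filled where adjusted p was under 0.05 in limma, with the median as a black bar. The grey line and band give the median and the quartiles of all genes (-0.20 to 0.30). The medians of the transporter members (-0.31) and of the amino acid response genes (-0.44) lie left of the band, and those of the other 5 lists lie within it.

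To set the members beside the amino acid response genes, their promoters were searched for the core TGATGNAA, which the known Atf4 elements contain, on both strands, in windows of 250 bases before to 50 after each start in RefSeq (GRCm38.p6). It was found in 4 of 46 members with a window (8.7%), against 4.51% of 27025 genes. Slc7a2, Slc7a3 and Slc7a5 also fell but had no window, so they were not searched. None of the 8 members that fell and had a window held the core (0 of 8), too few members to tell this from the share of all genes. Of 15 tested members without a call, 2 held it. These were Slc1a4 and Slc7a11. Slc7a7, which was called as a rise but passed the filter only through the miR-7 arrays, held it as well. The 120 bases before the start of Slc7a11, with its 2 matches at 66 and 47 bases before the start, are shown beside those of Slc3a2 and Slc38a2, which fell and had no match in the window. All 3 are written 5′ to 3′ on the minus strand with matches in capitals.
Slc7a11 (chr3:50443614-50443733): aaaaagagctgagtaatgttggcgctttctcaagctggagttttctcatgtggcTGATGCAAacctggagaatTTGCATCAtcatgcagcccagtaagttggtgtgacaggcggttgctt
Slc3a2 (chr19:8713898-8714017): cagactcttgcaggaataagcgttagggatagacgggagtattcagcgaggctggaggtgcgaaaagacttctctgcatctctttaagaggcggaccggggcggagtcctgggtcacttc
Slc38a2 (chr15:96699729-96699848): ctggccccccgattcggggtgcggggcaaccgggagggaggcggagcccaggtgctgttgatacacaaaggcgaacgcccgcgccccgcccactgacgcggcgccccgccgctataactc
A match is a description of the sequence, and its absence says only that these letters are not in the window.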

How the data were processed

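The authors deposited log2 intensities per probe set, made with GCRMA per the submitters' processing notes, which also name the affy package without versions. Of 45101 probe sets, 34958 had a single gene symbol in the platform annotation; 932 with several symbols and 9211 without one were left out. All 63 member symbols were the same in RefSeq. A gene was read from whichever of its probe sets was brightest on average across the 6 arrays, and genes with a mean of 4 or more in the system compared were tested (10367 in MIN6, 10553 in islets). limma 3.58.1 (R 4.3.3) compared the 3 miR-7 arrays with the 1 AdGFP array (2 residual degrees of freedom), two-sided, with Benjamini-Hochberg adjustment over all genes; the lone AdGFP array is assumed to vary like the others. Single-array comparisons used a log2 size of 1 and no test. The fit was also run on simulated data in which AdGFP varied like the miR-7 arrays, so that run cannot check this assumption. No labelled batch was given. Members and lists were chosen with earlier results of these data known. Members named with every array were those called at a size of 0.58 or more, those past 1 in a comparison with the higher array at 5 or more, the 5 highest and 5 lowest between MIN6 and islets with the higher at 6 or more, and 9 defining members (of other lists, up to 4 called genes of largest size); others named were chosen after their values were seen.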

Additional observations from a re-analysis of the deposited data

How the results depend on the processing

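The counts rest on 1 AdGFP array and few degrees of freedom, and dim probe sets bound several sizes. Of the 23 named members, 11 lost their call in each fit that left out a miR-7 array, when each vector had its own mean and with no filter on low values. Slc6a19, which had no call, turned from -0.11 to 0.18 without AdmiR7b replicate 1 and with a mean per vector (adjusted p = 0.697), and ranged from -0.38 to 0.18 with 1 miR-7 array left out; no other named member changed sign in MIN6. With the mean of probe sets the uncalled KO differences of Slc7a1 and Slc7a2 turned to 0.19 and 0.36. Leaving out 1 miR-7 array in turn gave 0 members that fell (0 to 0) and 0 that rose (0 to 0), with a median of -0.343 to -0.308; the mean per vector gave 0 and 0. With no filter, 0 fell and 0 rose, and the medians were 0.00 in MIN6 and 0.00 in islets, since members at the shared lowest value then enter. The 1 rise became 0 with a filter at 6, with the mean of probe sets and with quantile normalization. The 11 that fell were 9 with a filter at 6, 9 with the mean of probe sets, 12 with quantile normalization, 12 with a trend and 11 without the genes whose symbol ends in os, an alternative chosen after seeing the data. A filter at 6 gave 1 member lower with AdmiR7a, 2 lower with AdmiR7b, 1 higher in KO and a KO median of 0.12. The mean of probe sets gave 1, 2 and a KO median of 0.16. At a size of 0.58, 7 were lower and 1 higher with AdmiR7a, 13 lower and 1 higher with AdmiR7b, and 1 lower in KO. The median in MIN6 was -0.36 with quantile normalization and -0.34 with arrays centred on their median. No paired analysis was possible because only AdmiR7a has more than 1 array.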

Other observations

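Where a gene has several probe sets they did not always give the same picture. Slc43a2 had a dim probe set that read 5.35 in KO and 3.73 in WT islets, where it was below the filter. Slc7a2 had a second probe set at 7.49 on AdGFP and 6.11, 6.77 and 6.41 on the miR-7 arrays, a difference of -1.06 against -0.69 for the probe set used. Slc7a14, by its second probe set, read 9.80 in AdGFP cells and 6.03 in WT islets, 3.77 higher in the cell line, while the probe set used for it was lower there by 0.76. These pairs were picked after their values were seen.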
